A study of Homo sapiens with 6 samples.

Results

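The 9 cyclin genes CCND1, CCND2, CCND3, CCNE1, CCNE2, CCNA1, CCNA2, CCNB1 and CCNB2 were described in HEK293 Flp-In cells with constitutive expression of FLAG-HA-tagged TRIM71, the TRIM71 line, and in the parental HEK293 Flp-In line. They were taken by gene symbol from the array annotation. Each gene had 1 probeset, so the members were 9 of 32321 probesets and 9 of 18404 genes. No probeset shared a cyclin with another gene. The data were 6 Affymetrix arrays of total RNA, 3 for the TRIM71 line and 3 for the parental line. HEK293 cells derive from human embryonic kidney cells transformed with adenovirus DNA. Flp-In cells carry a recombination site for placing a transgene. Both lines grew in the same medium, but hygromycin B is named for the TRIM71 line only, so transgene, drug and other differences between the lines cannot be told apart. The labels name neither the promoter of the transgene nor the number of clones.

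Cyclins are the regulatory subunits of cyclin-dependent kinases, or CDKs, and their levels set when in the cell cycle a kinase is active. D cyclins bind CDK4 and CDK6 in G1 and respond to growth signals, E cyclins bind CDK2 at the G1/S transition, A cyclins bind CDK2 and then CDK1 in S and G2 phase, and B cyclins bind CDK1 to drive mitosis. Transcription of the E cyclins is known to be driven by E2F factors, and that of CCNA2, CCNB1 and CCNB2 to peak in G2. In bulk RNA, a different share of cells in a phase and a different amount of mRNA per cell cannot be told apart.

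Values are log2 expression, 1 value per array, and a log2 fold change is the TRIM71 line minus the parental line. A gene was called higher or lower at a Benjamini-Hochberg adjusted p under 0.05 in a limma fit over all probesets. TRIM71 itself had 10.63, 10.86 and 10.72 on the TRIM71 arrays, against 7.23, 7.54 and 7.44 on the parental arrays, which checks the labels. Arrays of a group correlated at 0.996 to 0.997, and arrays of different groups at 0.991 to 0.994. Of 8 neurofilament, keratin, vimentin and early kidney genes known from HEK293 cells, NEFM alone lay under the median probeset of 6.94 in both groups. Of these 8, 1 was called higher in the TRIM71 line, VIM (0.40), where 10% of all genes were. Called lower were 3, NEFL (−1.45, 2.72-fold, adjusted p = 9.5e-05), INA (−0.62) and KRT8 (−0.22), where 12.2% of all genes were. The KRT8 call ended whichever array was left out (adjusted p = 0.064 to 0.124). The part of these changes in the cyclin values was not tested. Of 9 measured markers of other cell types, limma called 0, where 22.2% of all genes were called. Of these 9, 1 had an unadjusted p under 0.05, COL1A1. Their mean levels lay between 3.51 and 7.56, COL1A1 being the one above the median probeset. Nothing in the labels says that the triplicates were separate cultures, so the spread of these 3 arrays per group is possibly a technical one. The limma p-values use this spread, moderated by that of all probesets.

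Of the 9 cyclins, 3 were higher and 4 were lower in the TRIM71 line, and 2 did not pass the test. The members called were thus 7 of 9, where 22.2% of all genes were called, 10% as higher and 12.2% as lower. The cyclin means all lay above the median probeset of 6.94 (lowest 7.45), while the shares of all genes given here cover genes of every level. All 3 D cyclins and CCNE2 were lower, CCNE1, CCNA1 and CCNB2 were higher, and CCNA2 and CCNB1 did not pass. By at least 1.5-fold, 3 of 9 were called, namely CCNE2, CCND3 and CCNA1, where 3.97% of all genes were. On all 9 probesets the arrays of one group lay apart from those of the other, as they did for 43.6% of all genes. The median log2 fold change was 0.12 for the cyclins and −0.01 for all genes.

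**Figure D1:**
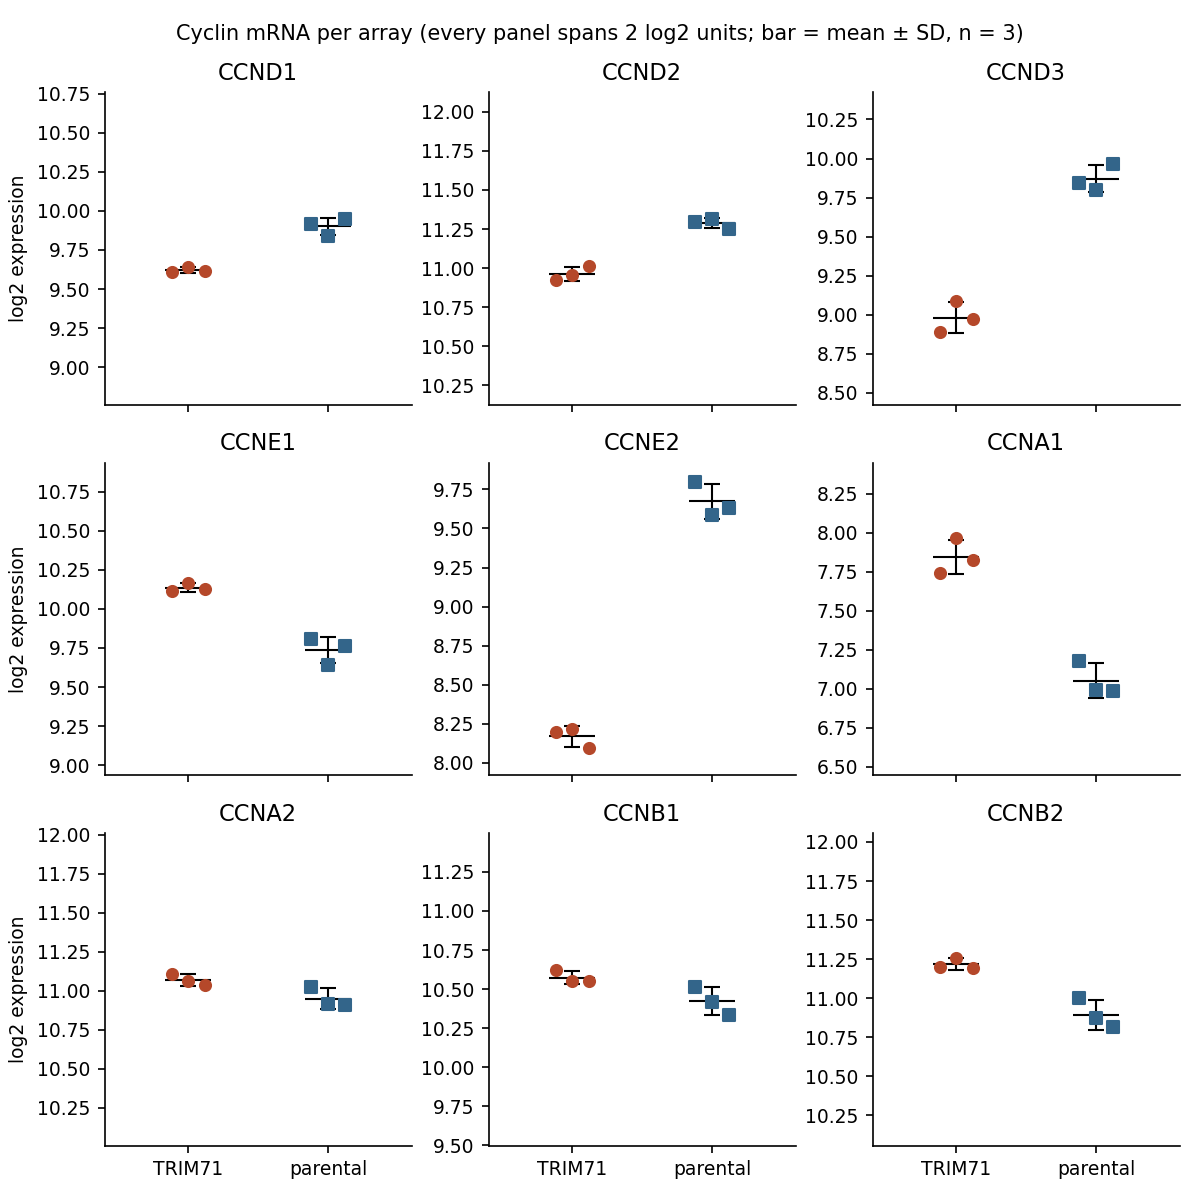
Log2 expression of each cyclin mRNA on the 3 TRIM71 arrays (red circles, left) and the 3 parental arrays (blue squares, right), with the mean and SD of each group. Every panel spans the same number of log2 units, so the gap of CCNE2, where the TRIM71 mean is 8.17 and the parental mean 9.67, can be compared by eye with the small one of CCNA2.

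The D cyclins, which carry growth signals to CDK4 and CDK6, were all 3 called lower. CCND3 had log2 expression of 8.89, 9.09 and 8.97 on the TRIM71 arrays, against 9.85, 9.80 and 9.97 on the parental arrays. The highest TRIM71 array lay 0.71 under the lowest parental array. CCND3 was 1.85-fold lower (log2 fold change −0.89, SE 0.07, 95% interval −1.06 to −0.71, adjusted p = 9.6e-04). It held rank 201 of 18404 genes when these were ordered from the largest decrease. Its probeset is annotated to 6 RefSeq mRNAs, more than that of any other cyclin here, and the value does not separate them.

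CCND2 had 10.92, 10.96 and 11.01 in the TRIM71 line and 11.30, 11.32 and 11.25 in the parental line. The groups lay 0.24 apart, and CCND2 was 1.25-fold lower (log2 fold change −0.32, SE 0.05, adjusted p = 0.0072). CCND1, the cyclin amplified or translocated in several cancers, had 9.61, 9.64 and 9.62 on the TRIM71 arrays and 9.92, 9.84 and 9.95 on the parental arrays. The TRIM71 arrays agreed within an SD of 0.02, and CCND1 was 1.21-fold lower (log2 fold change −0.28, SE 0.05, adjusted p = 0.012). Without TRIM71 replicate 1 the CCND1 value was −0.27 and the call ended (adjusted p = 0.051). Thus 3 of 3 D cyclins were called lower over all 6 arrays, where 12.2% of all genes were.

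The E cyclins moved in opposite directions. CCNE2 had 8.20, 8.22 and 8.09 on the TRIM71 arrays, against 9.80, 9.59 and 9.63 on the parental arrays. All TRIM71 arrays were low, and the nearest arrays of the groups lay 1.37 apart, the widest gap among the 9 cyclins. CCNE2 was 2.83-fold lower (log2 fold change −1.50, SE 0.07, 95% interval −1.68 to −1.33, adjusted p = 2.1e-04). By size it held rank 45 among the decreases of all genes, and 0.304% of genes changed by more in either direction. As a single value it had a two-sided exact permutation p of 0.1, the smallest that 3 against 3 arrays can give.

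CCNE1 had 10.11, 10.17 and 10.13 on the TRIM71 arrays and 9.80, 9.64 and 9.76 on the parental arrays. The TRIM71 arrays were the high ones, 0.31 above the nearest parental array. CCNE1 was 1.32-fold higher (log2 fold change 0.40, SE 0.06, 95% interval 0.26 to 0.54, adjusted p = 0.0065). CCNE1 lies on chromosome 19 and CCNE2 on chromosome 8. The 95% intervals of the 2 changes lay on opposite sides of 0.

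The change of one paralogue against the other was read within each array, where probe effects cancel between groups. CCNE2 minus CCNE1 was −1.91, −1.95 and −2.03 on the TRIM71 arrays and −0.01, −0.05 and −0.13 on the parental arrays. The 2 sets of differences were far apart, and each had an SD of 0.06. The difference moved by −1.90, so that the ratio of CCNE2 to CCNE1 mRNA fell 3.74-fold in the TRIM71 line (two-sided exact permutation p = 0.1, 0.12 adjusted over 6 pairs). No pair could reach a p under 0.1 in this design. Leaving out any 1 array kept this change between −1.94 and −1.87.

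Of the 6 paralogue pairs, 5 had differences that did not overlap between the groups, where the values of single genes did not overlap for 43.6% of genes and other gene pairs were not examined. Each of these 5 had the same exact permutation p of 0.1 (0.12 adjusted). CCND3 minus CCND1 was −0.72, −0.55 and −0.65 on the TRIM71 arrays and −0.07, −0.04 and 0.02 on the parental arrays. CCND3 thus fell beyond CCND1, with a change of −0.61 in their difference, and beyond CCND2 with a change of −0.56. CCND2 minus CCND1 was 1.32, 1.32 and 1.39 on the TRIM71 arrays and 1.38, 1.48 and 1.31 on the parental arrays, which overlap. The change of −0.05 in that pair had an exact permutation p of 0.7 and was smaller than the SD of 0.08 among the parental arrays.

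**Figure D2:**
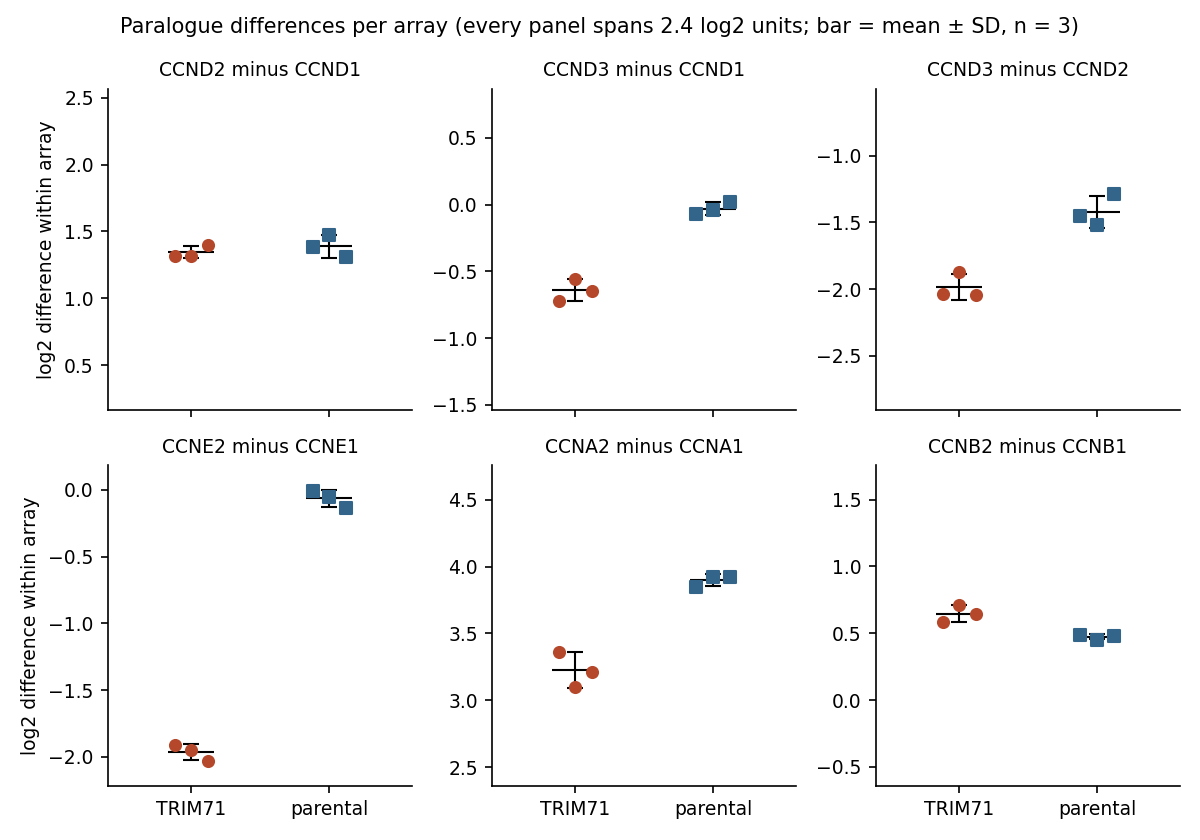
Within-array log2 difference of 2 paralogues, named above each panel, on the 3 TRIM71 arrays (red circles, left) and the 3 parental arrays (blue squares, right), with the mean and SD. CCNE2 minus CCNE1 averages −1.97 in the TRIM71 line and −0.06 in the parental line, while the groups overlap for CCND2 minus CCND1.

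**Figure D3:**
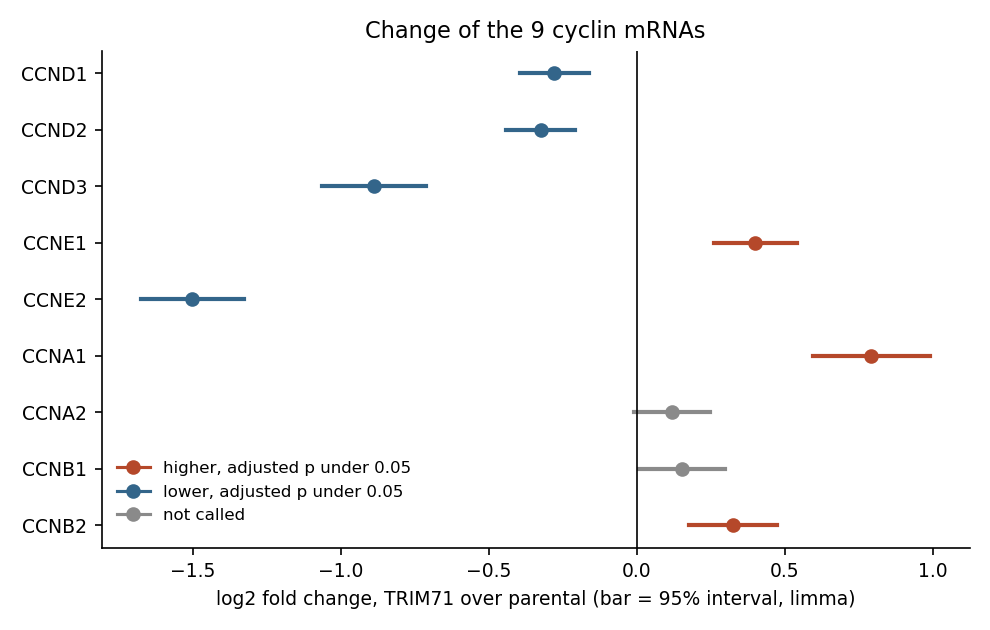
Log2 fold change of each cyclin, TRIM71 line over parental line, with its 95% interval from the limma fit. CCNE2 at −1.50 and CCND3 at −0.89 lie farthest to the left, and CCNA1 at 0.79 farthest to the right.

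CCNA1, the A cyclin known from male germ cells, had 7.74, 7.96 and 7.83 on the TRIM71 arrays and 7.18, 6.99 and 6.99 on the parental arrays. It was the dimmest of the 9 probesets, with 56.7% of all probesets below its mean, and its parental mean of 7.05 was close to the median probeset. The TRIM71 arrays were all above the parental ones, and CCNA1 was 1.73-fold higher (log2 fold change 0.79, SE 0.08, 95% interval 0.59 to 0.99, adjusted p = 0.0021). It held rank 91 among the increases of all genes. At low signal a log2 value can understate a fold, which was not tested for this probeset.

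CCNA2, the A cyclin of dividing somatic cells, had 11.11, 11.06 and 11.04 on the TRIM71 arrays and 11.03, 10.91 and 10.91 on the parental arrays. The groups lay only 0.01 apart, and the log2 fold change of 0.12 did not pass (95% interval −0.01 to 0.25, adjusted p = 0.205). CCNA2 minus CCNA1 was 3.36, 3.10 and 3.21 in the TRIM71 line and 3.84, 3.92 and 3.92 in the parental line. The groups did not overlap in that difference, which changed by −0.67.

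The B cyclins, partners of CDK1 in mitosis, both had higher values in the TRIM71 line, and CCNB2 passed the test. CCNB2 had 11.20, 11.26 and 11.19 on the TRIM71 arrays and 11.00, 10.87 and 10.81 on the parental arrays. It was 1.25-fold higher (log2 fold change 0.32, SE 0.06, adjusted p = 0.017). Leaving out parental replicate 2 ended the call (0.31, adjusted p = 0.067), as did leaving out parental replicate 3 (0.28, adjusted p = 0.053). The same held for TRIM71 replicate 1 (0.33, adjusted p = 0.057) and TRIM71 replicate 2 (0.30, adjusted p = 0.062).

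CCNB1 had 10.62, 10.55 and 10.55 on the TRIM71 arrays and 10.51, 10.42 and 10.33 on the parental arrays. The groups lay 0.04 apart, and the log2 fold change of 0.15 did not pass (95% interval 0.01 to 0.30, unadjusted p = 0.044, adjusted p = 0.154). CCNB2 minus CCNB1 was 0.58, 0.71 and 0.64 on the TRIM71 arrays and 0.49, 0.45 and 0.48 on the parental arrays. The change of 0.17 was the smallest of the 5 whose groups did not overlap.

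The proximal promoters of CCNB2, CCNB1 and CCNE1 are shown, the 3 cyclins with a match to the CHR letters named below. Transcription of these 3 is known to be timed by the cell cycle, as is that of CCNA2, which is not printed. RefSeq windows of GRCh38.p14 were found for 6 of the 9 cyclins (CCND3, CCNE1, CCNA1, CCNA2, CCNB1 and CCNB2), 8 windows in all. Those printed hold the 250 bases before the annotated start, 5′ to 3′ on the strand of the gene. Capitals mark 3 kinds of letters searched on both strands. They are the cell cycle homology region, or CHR (TTTGAA or TTTAAA), the CCAAT box (CCAAT) and an E2F core (TTNNCGC with C or G at both N).
CCNB2, chr15:59104896-59105145, plus strand: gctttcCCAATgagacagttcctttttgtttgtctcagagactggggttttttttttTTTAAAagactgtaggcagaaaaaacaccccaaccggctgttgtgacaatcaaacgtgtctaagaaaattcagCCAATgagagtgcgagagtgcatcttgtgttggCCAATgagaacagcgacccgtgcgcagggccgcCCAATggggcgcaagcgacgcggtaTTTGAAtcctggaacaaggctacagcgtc
CCNB1, chr5:69166900-69167149, plus strand: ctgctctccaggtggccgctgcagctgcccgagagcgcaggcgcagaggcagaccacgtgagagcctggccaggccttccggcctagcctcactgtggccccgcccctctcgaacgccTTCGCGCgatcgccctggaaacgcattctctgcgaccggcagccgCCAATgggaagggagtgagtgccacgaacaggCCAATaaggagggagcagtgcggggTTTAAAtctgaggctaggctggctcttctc
CCNE1, chr19:29811741-29811990, plus strand: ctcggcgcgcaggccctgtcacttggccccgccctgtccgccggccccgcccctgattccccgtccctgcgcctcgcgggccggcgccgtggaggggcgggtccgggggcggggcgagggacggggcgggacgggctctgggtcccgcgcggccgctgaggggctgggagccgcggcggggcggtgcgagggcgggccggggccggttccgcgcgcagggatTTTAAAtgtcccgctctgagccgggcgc

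The windows of CCNB2 and CCNB1 are alike in layout. In CCNB2 a CHR match ends 24 bases before the start, and in CCNB1 one ends 25 bases before it. CCAAT matches lie upstream of the CHR match nearest the start, 4 in CCNB2 and 2 in CCNB1, where 9.53% of 35116 promoter windows held at least 2. CCNB2 holds another CHR match, ending 188 bases before the start, and 1 of its CCAAT matches lies upstream of that. A CHR match was present in 21.9% of all windows and a CCAAT match in 32%. Among the cyclin windows, only those printed held a CHR match. The window of CCNA2 held 0 CHR matches and 1 CCAAT match.

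The CCNE1 window held 1 CHR match, ending 23 bases before the start, and no match to the other letters. The E2F core was present in 10.9% of all windows and, among the 8 cyclin windows, in that of CCNB1. A match describes letters and is not a site, and no match says only that these letters are not in the window.

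Within each group, a single array stood highest for 6 of the 9 cyclins. The same count over all genes was not made, so this cannot be called particular to the cyclins. Parental replicate 1 was the highest parental array for 6 of the 9 cyclins, with a median deviation from the parental means of 0.08. TRIM71 replicate 2 was the highest TRIM71 array for 6 of 9, with a median deviation of 0.03. No cyclin call was lost without parental replicate 1, and the CCNB1 value there was 0.20 (adjusted p = 0.089).

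**Figure D4:**
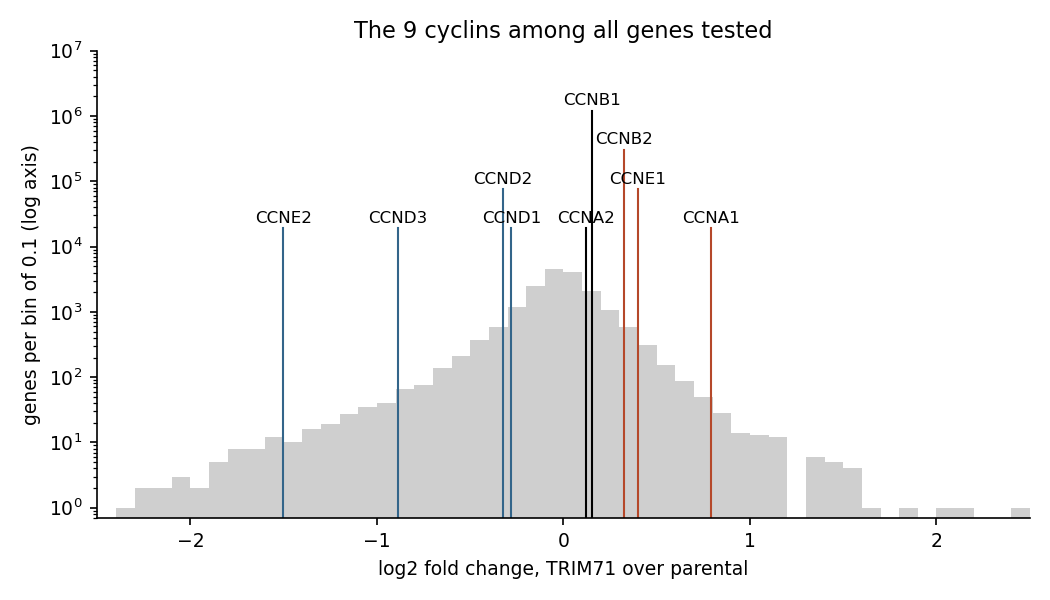
Number of genes per bin of log2 fold change, TRIM71 over parental, on a log axis (grey bars, drawn between −2.5 and 2.5), with a line at each cyclin, red for higher, blue for lower and black for not called. CCNE2 at −1.50 and CCNA1 at 0.79 stand in the thin ends, and CCNA2 and CCNB1 lie near the peak.

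Among the CDKs that the cyclins activate, 2 of 4 were called, where 22.2% of all genes were. CDK2, the partner of the E and A cyclins, had 10.06, 10.16 and 10.06 on the TRIM71 arrays, against 10.63, 10.54 and 10.52 on the parental arrays. It was 1.38-fold lower (log2 fold change −0.47, SE 0.06, adjusted p = 0.0034). CDK6, a partner of the D cyclins, had 10.54, 10.55 and 10.55 in the TRIM71 line and 9.88, 9.93 and 9.99 in the parental line. It was 1.52-fold higher (log2 fold change 0.61, SE 0.05, adjusted p = 9.1e-04), opposite in direction to all 3 D cyclins.

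CDK4, the other D cyclin partner, differed by −0.02 (adjusted p = 0.840), a sign that turned with quantile normalization (0.0022). CDK1, the mitotic kinase, differed by 0.03 (adjusted p = 0.860), and its sign turned without parental replicate 2 or parental replicate 3 (−0.0038 and −0.01). Groups overlapped for both kinases.

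Of 8 genes that activate CDKs or phosphorylate them for inhibition, 1 rose, 2 fell and 5 did not pass, where 22.2% of all genes were called. CDK7, the kinase of the CDK-activating complex, rose by 0.34 on the log2 scale (adjusted p = 0.0091), and CDC25B, a phosphatase that activates mitotic CDK1, had a log2 fold change of −0.73 (adjusted p = 7.7e-04). PKMYT1, a kinase that inhibits CDK1, had −0.29 (adjusted p = 0.015). The PKMYT1 call was lost without parental replicate 2, TRIM71 replicate 1 or TRIM71 replicate 2 (−0.29 to −0.26, adjusted p = 0.054 to 0.059). The probesets of WEE1, another kinase that inhibits CDK1, disagreed. The brightest, used in the count, had 0.15 (adjusted p = 0.117), passing with an intensity trend or without dim probesets, and the other two had −0.15 (adjusted p = 0.281) and −0.25 (adjusted p = 0.023).

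Of 7 measured CDK inhibitors, 3 fell and 4 did not pass, where 12.2% of all genes were called lower, and the median was −0.14. CDKN1A, which binds several cyclin-CDK complexes, had 7.44 ± 0.14 in the TRIM71 line and 7.97 ± 0.07 in the parental line (SD, n = 3 each; log2 fold change −0.54, adjusted p = 0.0074). CDKN1B, an inhibitor of cyclin E-CDK2, had −0.31 (adjusted p = 0.0071), and CDKN3, a phosphatase that acts on CDK2, had −0.43 (adjusted p = 0.015).

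Of 13 pocket proteins and E2F and DP factors, 2 rose, 4 fell and 7 did not pass, where 10% of all genes were called higher and 12.2% lower. E2F5 (0.74, adjusted p = 0.0021) and E2F6 (0.35, adjusted p = 0.0051), both known as repressors, rose, and E2F7, a repressor too, fell (−0.69, adjusted p = 7.9e-04). E2F1, an activator of the E cyclins, differed by 0.01 (adjusted p = 0.939), and its sign turned with cyclic loess and without parental replicate 3 or TRIM71 replicate 3. RB1 (−0.29), RBL1 (−0.23) and TFDP1 (−0.26) were lower with calls that single arrays decided. That of RB1 ended whichever array was left out (adjusted p = 0.058 to 0.103). That of TFDP1 ended without any array but parental replicate 2 (0.054 to 0.067), and that of RBL1 without any but parental replicate 1 and TRIM71 replicate 3 (0.055 to 0.068).

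Of 10 genes of the MuvB complex, B-MYB, FOXM1 and NF-Y, which act on the CHR and CCAAT elements, 2 rose and 8 did not pass, a share near the 22.2% of all genes called. These were NFYA, a subunit of the CCAAT-binding factor (0.39, adjusted p = 0.0053), and LIN52, a MuvB subunit (0.31, adjusted p = 0.0075).

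Of 21 measured subunits and partners of the ligases that mark cyclins or their inhibitors for destruction, 3 rose, 3 fell and 15 did not pass, a share near the 22.2% of all genes called. UBE2C, the ubiquitin-conjugating enzyme of the anaphase-promoting complex, rose to 9.24 ± 0.02 in the TRIM71 line, against 8.74 ± 0.07 in the parental line (SD, n = 3 each; log2 fold change 0.49, adjusted p = 0.0024). FBXW7, the F-box protein for cyclin E, differed by 0.02 (adjusted p = 0.885), and its sign turned without parental replicate 2 or TRIM71 replicate 2. SKP2, the F-box protein for p27, differed by 0.004 (adjusted p = 0.971), and its sign turned without either of these arrays, with cyclic loess and with arrays centred on their medians. The other 5 calls were decided by single arrays. CDC20 (0.21) lost its call without any 1 of the 6 arrays (adjusted p = 0.057 to 0.079). FBXO31 (−0.23) lost it without any but TRIM71 replicate 2 (0.067 to 0.125), and FBXO4 (−0.45) without any but parental replicate 3 (0.050 to 0.082). CUL3 (0.24) lost it without parental replicate 2, parental replicate 3 or TRIM71 replicate 2 (0.051 to 0.063), and CDC16 (−0.25) without parental replicate 2 or TRIM71 replicate 1 (0.055 to 0.059).

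**Figure D5:**
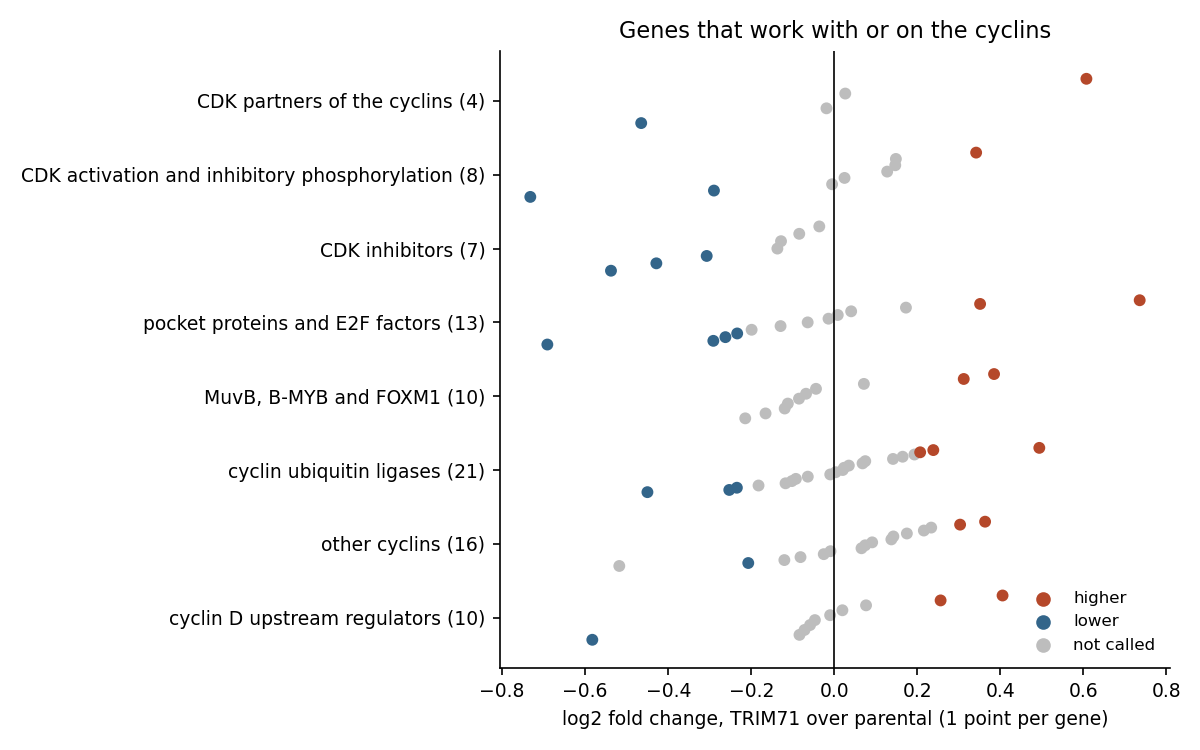
Log2 fold change, TRIM71 over parental, of every measured gene in 8 lists of genes that work with or on the cyclins (number of genes in brackets, 1 point per gene; red higher, blue lower, grey not called). CDK6 at 0.61 and CDK2 at −0.47 lie on opposite sides of 0, and all 3 called CDK inhibitors lie to the left.

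The genes whose 6 values, each taken from the parental mean of the gene, lay nearest to those of CCNE2 were ZNF43, ZNF100, ZNF542P and EPCAM. The search covered 11099 genes whose mean over the 6 arrays was at or above the median probeset. The TRIM71 mean of ZNF43, 6.35, lay under that median. Root mean square differences of these genes from CCNE2 over the 6 arrays were 0.063, 0.069, 0.073 and 0.085 log2 units. This distance depends largely on the size of the change. The log2 fold changes were −1.50, −1.52, −1.46 and −1.47 in the same order, against −1.50 for CCNE2. Shared regulation was not tested. ZNF43, ZNF100 and ZNF542P lie on chromosome 19. ZNF43 and ZNF100 are zinc finger genes, and the symbol of ZNF542P marks a zinc finger pseudogene. EPCAM is an epithelial adhesion protein with its gene on chromosome 2. Nearest to CCNE1 were COPS7B (0.016), IMPA1 (0.019), PSMD1 (0.020) and TFRC (0.020), of which COPS7B and PSMD1 lie on chromosome 2.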

How the data were processed

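The deposited table gives log2 expression values for each array. The authors made them with RMA (background correction, quantile normalization, probe summary) and affy, per the submitters' processing notes. Versions and array annotation build are not given in the sources used here. RMA brings the probe values of all arrays to 1 distribution before the probe summary, so a change in total mRNA per cell cannot be seen. Array medians lay between 6.90 and 6.97, and 3 arrays per group limit the precision.

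Of 32321 probesets, 19158 had 1 gene symbol, 1388 several and 11775 none. Names and chromosomes came from the RefSeq table of GRCh38.p14, which 19128 of the 1-symbol probesets matched. A gene with several probesets was represented by the one with the highest mean. A linear model with the group (from the titles) was fitted over all probesets in R 4.3.3 with limma 3.58.1 (lmFit, eBayes, no trend, no filter) and tested on simulated data, with Benjamini-Hochberg adjustment over all probesets and 95% intervals. Paralogue differences within arrays were compared with two-sided exact permutation tests.

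Named were the cyclins, TRIM71, CDK1, CDK2, CDK4, CDK6, the called genes of each list (at most 4 per direction) with a few uncalled ones chosen after their values were seen (E2F1, FBXW7, SKP2, WEE1, COL1A1, NEFM), and the 4 genes nearest to CCNE1 and to CCNE2. The members and lists were chosen with earlier results of these data known. Alternatives were other variance priors, normalizations, filters, thresholds and probeset choices, array weights, the replicate number as a block, and each array left out in turn.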

Additional observations from a re-analysis of the deposited data

How the results depend on the processing

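No cyclin changed direction under the 15 alternatives run for each, and 128 of the 135 values stayed on their side of the threshold. Of the 7 calls lost, 5 came with an array left out and 2 with the replicate block, which moved CCND1 (−0.28) to an adjusted p of 0.055 and CCNB2 (0.32) to 0.053. Over the 6 fits without 1 array, CCND1 ranged from −0.31 to −0.26 and CCNB2 from 0.28 to 0.38. The replicate block changed no other cyclin call. Deviations of same-numbered arrays correlated at 0.07, −0.19 and 0.11, and those of differently numbered arrays at −0.28 to 0.24. The labels do not say whether the numbers pair the samples, and with 3 arrays per group these values cannot decide it. With the block 1019 genes were called higher and 1371 lower, against 1848 and 2244 without it. At an adjusted p under 0.01, 792 genes were higher and 1106 lower, and 2 cyclins were higher and 3 lower. Leaving out 1 array gave 979 to 1485 genes higher and 1336 to 1709 lower. The paralogue changes kept their direction under all 9 alternatives, that of CCND2 minus CCND1 lying between −0.09 and −0.002. CDK4 turned to 0.0022 with quantile normalization, and CDK1 turned to −0.0038 and −0.010 without parental replicate 2 and parental replicate 3, within a range up to 0.094 without 1 array. Of 733 values for the other named genes, 78 lost their call, 3 gained one, all of WEE1, and 12 changed direction, all of CDK1, CDK4, E2F1, FBXW7 and SKP2. E2F1 turned to −0.0043 and SKP2 to −0.0090 with cyclic loess, and SKP2 to −0.00093 with arrays centred on their medians. Without 1 array, E2F1 ranged from −0.021 to 0.028, FBXW7 from −0.036 to 0.075 and SKP2 from −0.0075 to 0.012. The cause of these moves was not tested.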

Other observations

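Of 16 measured cyclins outside the D, E, A and B families, 2 rose, 1 fell and 13 did not pass. The share called was near the 22.2% of all genes called, and the median log2 fold change was 0.08. CCNT2, a subunit of the elongation factor P-TEFb, had 10.20 ± 0.02 in the TRIM71 line and 9.90 ± 0.06 in the parental line (SD, n = 3 each; log2 fold change 0.30, adjusted p = 0.010). CCNJL (0.36, adjusted p = 0.045) lost its call without any 1 array but TRIM71 replicate 1 (adjusted p = 0.063 to 0.140). CCNG1, a p53 target (−0.21, adjusted p = 0.044), lost it whichever array was left out (0.075 to 0.118).

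Of 10 measured genes upstream of the D cyclins, 2 rose, 1 fell and 7 did not pass, near the 22.2% of all genes called. MYC, a growth-promoting transcription factor, had 10.03 ± 0.05 in the TRIM71 line and 10.61 ± 0.03 in the parental line (SD, n = 3 each; log2 fold change −0.58, adjusted p = 0.0011). Its relative MYCN, dim at 6.77 ± 0.06 in the TRIM71 line and 6.36 ± 0.07 in the parental line, rose (0.41, adjusted p = 0.0069). GSK3B, a kinase that marks CCND1 for export and destruction, rose by 0.26 on the log2 scale (adjusted p = 0.017). That call ended without parental replicate 2, parental replicate 3, TRIM71 replicate 1 or TRIM71 replicate 2 (0.23 to 0.26, adjusted p = 0.055 to 0.070).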
